A study of Mus musculus with 12 samples.

Results

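The promoters of Il9r and Snrnp25 are neighbours on mouse chromosome 11, on the far side of the α-globin cluster's 5′ boundary, and both were used as viewpoints in the same 6 Capture-C libraries. Capture-C cuts crosslinked chromatin with a restriction enzyme, here DpnII, ligates fragments that lie close together in the nucleus, and pulls down the ligation products of chosen viewpoints, so that the count of a fragment measures how often it was joined to the viewpoint. The cells were CD71+ erythroid cells taken on magnetic columns from day 7 embryoid bodies of E14TG2a.IV mouse embryonic stem cells. CD71 is the transferrin receptor. WT cells carried the unedited locus, and D3839 cells (labelled CTCFDKO as well) carried a homozygous edit in which the CTCF sites at HS-38 and HS-39.5 had been replaced by ScaI sites, with CRISPR-Cas9 nickase and a repair template. All groups shared the same parental line, the same day and the same selection. Each genotype had 3 promoter-capture libraries from separate differentiations, and D3839 replicates 2 and 3 may come from 1 clone, since the sources name 2 clones. All 6 promoter-capture libraries of the 12 libraries in the series were used. In these, the lines of the Il9r and Snrnp25 viewpoints on chr11 outside the excluded stretch were taken, 67575 for Il9r and 30202 for Snrnp25, out of 772959 lines in the series. A line gives 1 DpnII fragment with its number of interactions in 1 library. No expression was measured here, and the erythroid identity of the cells could not be checked against marker genes.

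The α-globin genes are switched on in erythroid cells by a group of enhancers that lie upstream of them, mostly inside introns of the neighbouring gene Nprl3. R1 and R2 are the strongest of these enhancers. CTCF is a DNA-binding protein that can stall the loop-extruding cohesin ring, so that paired CTCF sites often bound the stretch of chromosome within which enhancers and promoters meet. Il9r encodes the receptor chain for interleukin 9. Snrnp25 encodes a protein of the U11/U12 particle of the minor spliceosome and is widely expressed. Next to Snrnp25, on the way to the enhancers, lie Rhbdf1, a rhomboid-like gene, and Mpg, a DNA glycosylase gene. Il9r is transcribed away from the globin genes and Snrnp25 towards them.

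The edited CTCF sites and both captured promoters are given here because they define the edit and the viewpoints. The core sequences of the CTCF sites that D3839 lacks were given by the study as 14 bases each, in capitals throughout.
HS-38: TACCCTCTGGTGGC
HS-39.5: CTGGCCACTGGGGG
The promoters are 300 bases each from RefSeq on GRCm38.p6, another build than the mm9 of the counts, and both viewpoints matched an entry. They run 5′ to 3′ on the strand of the gene, from 250 bases before the start to 50 after it. Il9r lies at chr11:32200230-32200529 on the minus strand and Snrnp25 at chr11:32205165-32205464 on the plus strand. Capitals mark GATAA and CCAAT on either strand (TTATC and ATTGG on the other).
Il9r promoter: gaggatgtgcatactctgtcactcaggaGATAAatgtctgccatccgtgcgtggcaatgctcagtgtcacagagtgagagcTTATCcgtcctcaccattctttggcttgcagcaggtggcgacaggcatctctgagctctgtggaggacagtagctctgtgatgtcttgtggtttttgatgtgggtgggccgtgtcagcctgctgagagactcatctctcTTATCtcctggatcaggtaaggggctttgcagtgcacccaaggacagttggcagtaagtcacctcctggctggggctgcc
Snrnp25 promoter: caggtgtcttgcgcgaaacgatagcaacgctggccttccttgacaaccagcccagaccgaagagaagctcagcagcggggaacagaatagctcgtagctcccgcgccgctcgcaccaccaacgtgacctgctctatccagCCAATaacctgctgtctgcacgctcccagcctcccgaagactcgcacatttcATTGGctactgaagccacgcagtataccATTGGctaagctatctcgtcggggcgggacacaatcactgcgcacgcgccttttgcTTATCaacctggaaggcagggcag
GATAA, the core of the motif bound by GATA factors, occurred 3 times in the Il9r window, starting 222, 169 and 30 bases before the start. It occurred once in the Snrnp25 window, beginning at base 27 of the transcript, and 25.4% of 32851 RefSeq promoter windows of this length held it. CCAAT, the box bound by NF-Y, occurred 3 times in the Snrnp25 window, starting 110, 58 and 30 bases before the start, and 37.4% of promoter windows held it. The letters CCAAT were not in the Il9r window. GATC, where DpnII cuts, lay 20 bases before the start of Il9r and was not in the Snrnp25 window, against 48% of windows that held it. The motifs were searched after the counts had been seen, and a match describes the letters only.

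On mm9 the Il9r viewpoint was the stretch chr11:32098986-32101248 and the Snrnp25 viewpoint chr11:32104554-32106268, for which the tables list no fragment, and their midpoints were 5.3 kb apart. The stretch from the start of the first to the end of the second was excluded. Outside it, Il9r had 20723, 9109 and 8851 interactions on chr11 in the WT libraries and 32611, 51712 and 50650 in the D3839 libraries. Snrnp25 had 8183, 4915 and 5077 in WT and 11659, 17779 and 17285 in D3839. D3839 libraries were thus deeper, and Il9r was read at 1.74 to 2.53 times the depth of Snrnp25 in WT and 2.80 to 2.93 times in D3839. The share of interactions that fell on chr11 at all was 53.9% to 61.3% for Il9r and 61.2% to 63.5% for Snrnp25 in WT, and 74.9% to 79.2% and 71.0% to 75.5% in D3839. Every share below is the percentage of a viewpoint's own chr11 interactions in that library, so that depth and the share on other chromosomes drop out, and each ratio compares both viewpoints within 1 library. A count of 3 interactions corresponds to a share of 0.0145% to 0.0339% for Il9r and 0.0367% to 0.0610% for Snrnp25 in WT.

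The plain question was whether a pair of promoters so close together contact the same surroundings. They did not do so evenly. From the enhancers to the end of the globin genes, the α-globin cluster took 1.93 times as large a share of the contacts of Snrnp25 as of Il9r in WT. On the other side, the near 5′ flank took the larger share of Il9r contacts, and beyond the globin genes the viewpoints were close together in WT. In the plot of contact levels along the locus, the profiles run alike in shape, and the curve of Snrnp25 lies above that of Il9r between the viewpoints and the end of the globin genes.

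**Figure D1:**
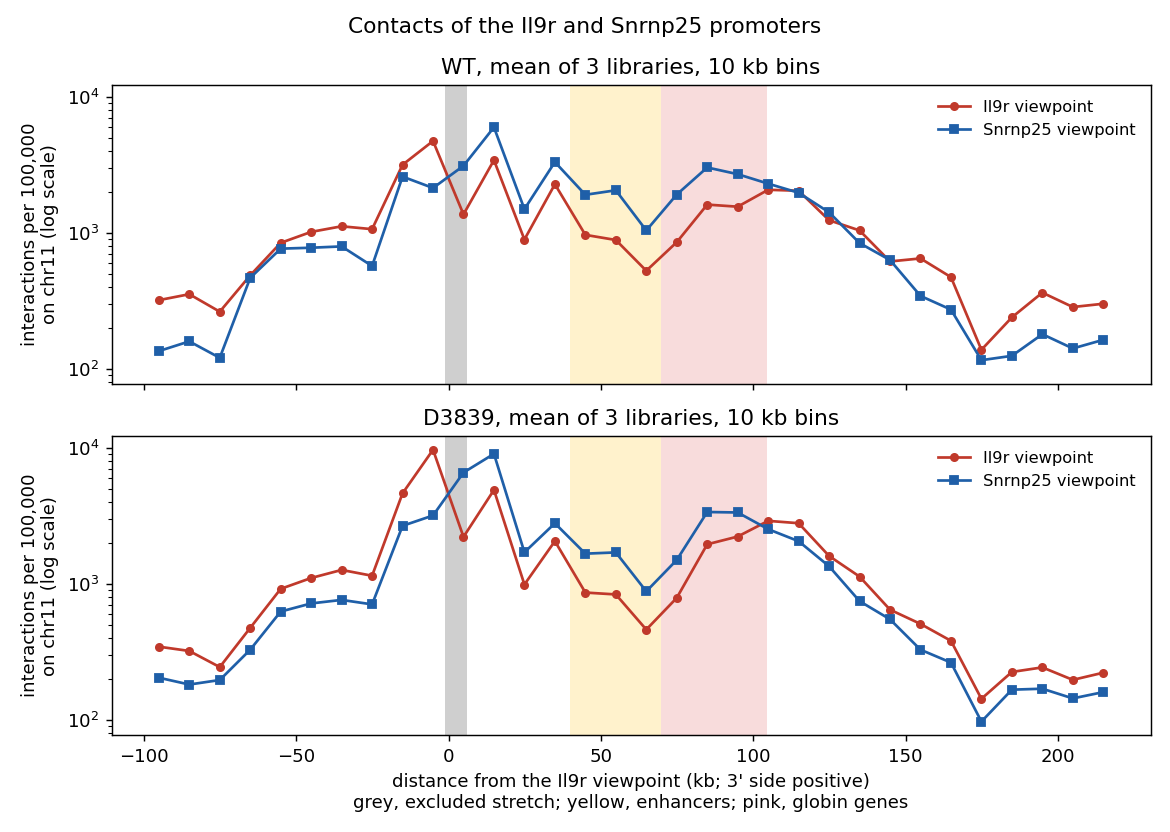
Mean interactions per 100000 on chr11 (log scale) in 10 kb bins against distance from the Il9r viewpoint, for the Il9r (red circles) and Snrnp25 (blue squares) viewpoints in WT (top) and D3839 (bottom), 3 libraries each. Red lies above blue on the 5′ side, blue above red from the viewpoints to the end of the globin stretch, and the curves meet or cross again about 105 kb from Il9r.

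The α-globin cluster was measured over 142 DpnII fragments at chr11:32139865-32204781. Il9r placed 6.51%, 7.84% and 6.42% of its chr11 interactions there in the WT libraries, and Snrnp25 placed 13.1%, 13.3% and 13.5%. The groups of values did not overlap, and the Snrnp25 share was higher within each of the 3 libraries. The log2 ratio of Il9r over Snrnp25 was -0.95 ± 0.16 (SD, n = 3, exact two-sided sign-flip test p = 0.25, the smallest that 3 pairs allow), which is 1.93-fold in favour of Snrnp25. Within a library the counting error alone gave 95% intervals of -1.12 to -0.90, -0.91 to -0.62 and -1.22 to -0.92. In D3839 the shares were 8.37%, 7.79% and 7.63% for Il9r and 15.03%, 12.3% and 12.8% for Snrnp25. Snrnp25 was again higher in 3 of 3 libraries, by 1.68-fold (log2 ratio -0.75 ± 0.09, SD, n = 3). The difference between the genotypes, 0.20 ± 0.11 (SE) in log2 with an exact two-sided permutation test p = 0.2, was within the spread of the libraries.

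The cluster was then split into its enhancers and its globin genes. The enhancer stretch, chr11:32139865-32169921, held 2.30%, 2.77% and 2.04% of Il9r interactions in WT and 4.89%, 4.84% and 5.24% of Snrnp25 interactions. This was 2.12-fold in favour of Snrnp25 (log2 ratio -1.08 ± 0.27, SD, n = 3), and the D3839 value was 1.964-fold (-0.97 ± 0.15). The globin stretch, chr11:32169922-32204781, which holds Hba-x, the embryonic α-like gene, and the adult copies Hba-a1 and Hba-a2, had 4.21%, 5.07% and 4.37% of Il9r interactions in WT and 8.25%, 8.46% and 8.21% of Snrnp25 interactions. Here WT libraries gave a log2 ratio of -0.87 ± 0.12 and D3839 libraries -0.66 ± 0.08 (SD, n = 3 each). The libraries of the genotypes nearly met, with -0.74 as the WT value nearest to 0 and -0.73 as the D3839 value farthest from it (difference 0.21 ± 0.08, SE, exact permutation p = 0.1, the smallest for 3 against 3).

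At single enhancers the same order held with thinner counts. The 4 fragments of R1, chr11:32144385-32146902, had 38, 20 and 18 Il9r interactions and 31, 20 and 16 Snrnp25 interactions in WT. As shares these were 0.183%, 0.220% and 0.203% against 0.379%, 0.407% and 0.315%, and the log2 ratio was -0.86 ± 0.21 (WT, SD, n = 3) or -1.13 ± 0.27 (D3839). The Snrnp25 share was larger in 6 of 6 libraries, although in WT replicates 2 and 3 the counting interval of the ratio reached 0. The 6 fragments of R2, chr11:32150164-32152574, gave -1.19 ± 0.54 in WT and -1.26 ± 0.27 in D3839, with 21 to 49 Il9r interactions and 29 to 42 Snrnp25 interactions in a WT library. R2 took the larger share of Snrnp25 contacts in 6 of 6 libraries as well.

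On the 5′ side the measured order was turned, although in WT not after the distance correction given below (-0.06). The near 5′ flank, 115 fragments at chr11:32049953-32098985, begins at the Il9r viewpoint, reaches away from the globin genes and holds the body of Il9r. Il9r placed 9.96%, 10.9% and 12.4% of its interactions there in WT, and Snrnp25 6.71%, 6.96% and 6.89%. In D3839 the Il9r shares were 18.3%, 17.6% and 17.8%, and those of Snrnp25 8.31%, 8.14% and 7.71%. Il9r was higher in all 6 libraries, and the log2 ratio averaged 0.69 ± 0.14 over WT and 1.15 ± 0.05 over D3839 libraries (SD, n = 3 each). The D3839 libraries, at 1.11 to 1.21, lay above the WT libraries, at 0.57 to 0.85 (difference 0.46 ± 0.09, SE, exact permutation p = 0.1). Both viewpoints had larger shares there in D3839, 1.62-fold for Il9r and 1.17-fold for Snrnp25, and neither overlapped between the genotypes.

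The stretch of 5′ genes on the other side of the viewpoints, 60 fragments at chr11:32106269-32135188, begins at the Snrnp25 viewpoint and holds Snrnp25, Rhbdf1 and Mpg. Il9r placed 5.97%, 7.04% and 7.15% of its interactions there in WT and Snrnp25 11.1%, 11.4% and 13.2%. In D3839 the shares were 9.40%, 8.91% and 8.76% for Il9r and 19.8%, 18.0% and 17.9% for Snrnp25. Snrnp25 was higher in each library, and the log2 ratio averaged -0.83 ± 0.11 over WT and -1.04 ± 0.03 over D3839 libraries (SD, n = 3 each), and the genotypes did not overlap (difference -0.21 ± 0.07, SE, exact permutation p = 0.1). Both viewpoints had larger shares here in D3839 too, 1.35-fold for Il9r and 1.56-fold for Snrnp25. With 10 kb around both viewpoints left out, the genotype difference of the 5′ genes was -0.0334 (exact permutation p = 0.8), and with the distance correction -0.16, with overlapping genotypes (p = 0.2). The near 5′ flank then had log2 ratios of 0.42 in WT and 0.74 in D3839, and a difference of 0.32 (exact permutation p = 0.1). The difference between genotypes goes with the larger chr11 share and the greater depth of the D3839 libraries, whose part in it was not tested.

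The Rhbdf1, Mpg and Nprl3 promoters were themselves viewpoints, and the tables list no fragment inside them, so the fragments within 3 kb of each were summed. Around Rhbdf1 the WT shares were 0.922%, 0.944% and 0.802% for Il9r and 1.45%, 1.49% and 1.63% for Snrnp25. Around Mpg they were 0.434%, 0.494% and 0.463% against 0.733%, 0.956% and 0.788%. Snrnp25 was higher at both in 6 of 6 libraries, with WT log2 ratios of -0.78 ± 0.21 and -0.82 ± 0.11 (SD, n = 3), which the distance correction took to -0.38 ± 0.21 and -0.51 ± 0.10. Around Nprl3 the WT ratio was -1.03 ± 0.70, and WT replicate 3 at -1.80 lay far from replicate 2 at -0.43, with 18 and 40 Il9r interactions behind them.

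The boundary stretch, 15 fragments at chr11:32135189-32139864, is where the CTCF sites HS-38 and HS-39.5 lie. Il9r placed 1.09%, 1.26% and 1.32% of its interactions there in WT and Snrnp25 1.86%, 1.83% and 2.17%. The log2 ratio was -0.67 ± 0.12 in WT and -0.44 ± 0.23 in D3839 (SD, n = 3), and the genotypes overlapped (exact permutation p = 0.2). The fold in favour of Snrnp25 was 1.59 in WT and 1.36 in D3839, and with the distance correction described below 1.38 and 1.17.

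Beyond the globin genes, in the 3′ flank at chr11:32204782-32281294 with 162 fragments, the viewpoints were close together in WT. Il9r placed 7.20%, 8.29% and 7.66% of its interactions there in WT and Snrnp25 6.99%, 7.45% and 7.15%. In D3839 the values were 11.3%, 8.40% and 8.34% against 8.18%, 6.32% and 6.59%. The log2 ratio was 0.10 ± 0.06 in WT, with each library's counting interval reaching below 0, and 0.41 ± 0.06 in D3839 (SD, n = 3 each). The D3839 libraries, at 0.34 to 0.47, lay above the WT libraries, at 0.04 to 0.15 (difference 0.31 ± 0.05, SE, exact permutation p = 0.1). The D3839-to-WT ratio of the share was 1.201-fold for Il9r and 0.971-fold for Snrnp25. In the outer 5′ flank, chr11:31899867-32049952, Il9r took 3.45% to 4.35% and Snrnp25 2.06% to 2.94% over the 6 libraries, which gave log2 ratios of 0.60 ± 0.09 (WT) and 0.56 ± 0.16 (D3839), and the genotypes overlapped. The rest of chr11 took 62.3% of Il9r and 56.1% of Snrnp25 interactions on average in WT, and 50.8% and 48.7% in D3839.

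**Figure D2:**
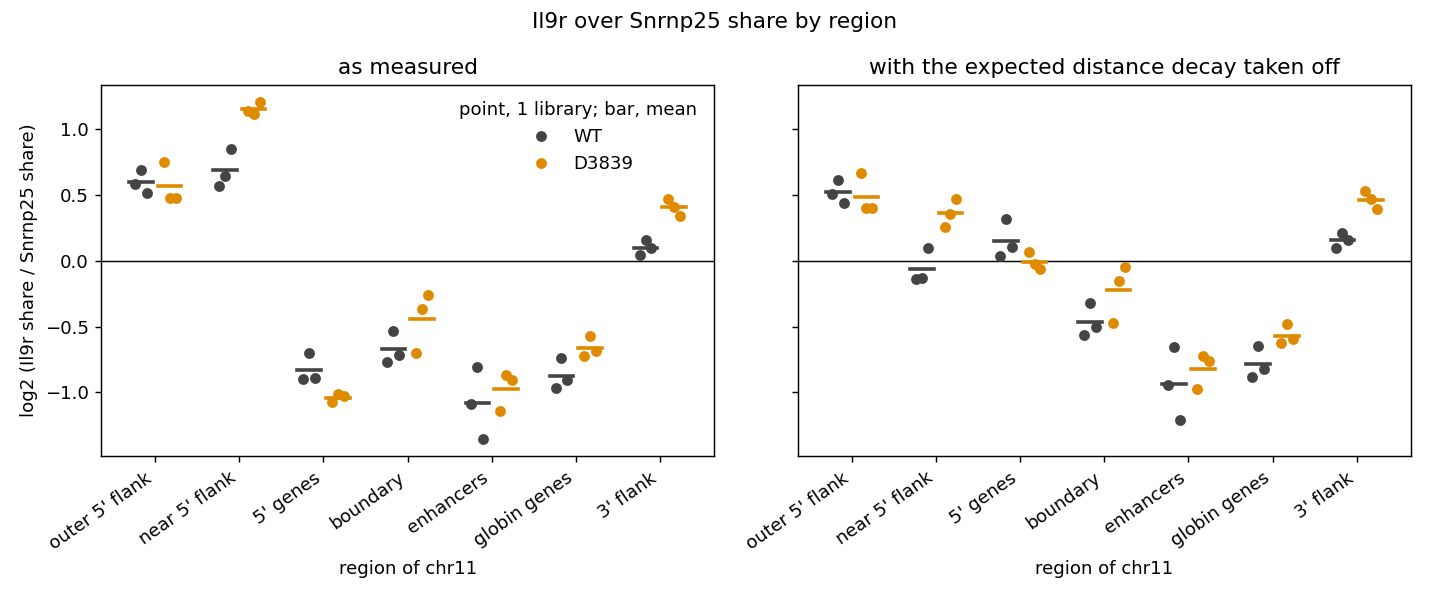
Log2 ratio of the Il9r share over the Snrnp25 share in each of 7 regions (grey WT, orange D3839, each point 1 library, bars the means), as measured (left) and after a ratio expected from distance was subtracted (right). On the right the means of the 5′ genes move to 0.15 in WT and -0.01 in D3839 and those of the near 5′ flank to -0.06 and 0.36, while each library's value in the enhancers and globin genes lies between -1.21 and -0.48.

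Since the viewpoints are 5.3 kb apart, Snrnp25 is nearer to the cluster and Il9r nearer to the 5′ flank, and contact frequency falls with distance. A power law was fitted to each library between 20 kb and 1 Mb of both viewpoints, with 1 exponent for both. For fragments nearer than 20 kb it was extrapolated. The ratio expected from it was subtracted. In the cluster this moved the ratio little, to -0.82 ± 0.16 in WT and -0.62 ± 0.08 in D3839 (SD, n = 3), that is 1.77-fold and 1.54-fold in favour of Snrnp25 in 3 of 3 libraries each. The corrected ratio was -0.93 ± 0.28 in WT for the enhancers and -0.78 ± 0.12 for the globin genes. In the regions that touch the viewpoints the correction took away most of the ratio or turned it. Whether the power law holds at the short distances there, below the fitted range, was not tested. The 5′ genes came to 0.15 ± 0.15 in WT, above 0 in 3 of 3 libraries (0.04, 0.32 and 0.10), and to -0.01 ± 0.06 in D3839, and the near 5′ flank to -0.06 ± 0.13 in WT, with 1 library above 0 and 2 below. In D3839 the near 5′ flank kept 0.36 ± 0.11, above 0 in 3 of 3 libraries, and the genotypes did not overlap there after the correction either (difference 0.42 ± 0.10, SE, exact permutation p = 0.1). The ratios of the 3′ flank after correction were 0.15 ± 0.06 in WT and 0.46 ± 0.07 in D3839.

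The exponent of the power law also differed between the viewpoints. For Il9r it was 0.83 ± 0.03 in WT and 0.90 ± 0.05 in D3839, and for Snrnp25 1.07 ± 0.02 and 1.06 ± 0.07 (SD, n = 3). Il9r contacts thus fell off less steeply in 6 of 6 libraries, with a difference of -0.24 ± 0.01 in WT and -0.16 ± 0.03 in D3839 (exact sign-flip p = 0.25 in each genotype). The fitted range includes the cluster, so this difference is not separate from the cluster shares. How much of it comes from the cluster was not tested.

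A second way to take account of distance was to compare, for each viewpoint, the 3′ side towards the cluster with the 5′ side at the same distance from that viewpoint. Equal distances do not cover the same DNA, since the midpoints are 5.3 kb apart. The end of the globin stretch lies within 100 kb of Snrnp25 but more than 100 kb from Il9r. How much this adds to the differences below was not tested. Between 7 and 100 kb, Il9r had a log2 ratio of 3′ over 5′ interactions of 0.51, 0.75 and 0.54 in WT and 0.53, 0.51 and 0.49 in D3839. For Snrnp25 the values were 1.41, 1.46 and 1.53 in WT and 1.53, 1.28 and 1.38 in D3839. Both promoters thus contacted the 3′ side more, by 1.51-fold for Il9r and 2.76-fold for Snrnp25 in WT, and the values of the viewpoints did not overlap. Il9r minus Snrnp25 was -0.87 ± 0.14 in WT and -0.88 ± 0.12 in D3839 (SD, n = 3, exact sign-flip p = 0.25 each). The genotypes differed by -0.02 ± 0.11 (SE, exact permutation p = 0.9).

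The bands of distance were not alike. From 60 to 100 kb, the 3′ side took in the whole globin stretch for Snrnp25 but not its end for Il9r. The 10 kb bin from 32200001, which holds that end and DNA beyond it, had 2068 Il9r and 2296 Snrnp25 interactions per 100000 in WT. The 3′ over 5′ ratio from 60 to 100 kb was 3.19-fold for Il9r and 7.44-fold for Snrnp25 in WT, and 3.93-fold and 8.83-fold in D3839. From 30 to 60 kb it was 1.37-fold and 2.76-fold in WT and 1.13-fold and 2.45-fold in D3839. The difference between the viewpoints in log2 was -1.22 ± 0.14 at 60 to 100 kb and -1.01 ± 0.20 at 30 to 60 kb in WT (SD, n = 3). Nearest the viewpoints, from 7 to 15 kb, the ratio was 1.56-fold for Il9r and 2.43-fold for Snrnp25 in WT, and the log2 difference was -0.64 ± 0.25 in WT and -0.86 ± 0.11 in D3839. From 15 to 30 kb the 5′ side was slightly ahead for both promoters, with log2 ratios of -0.33 ± 0.07 for Il9r and -0.08 ± 0.04 for Snrnp25 in WT and -0.20 ± 0.04 and -0.26 ± 0.01 in D3839. From 100 to 200 kb the difference was -0.49 ± 0.13 in WT and 0.08 ± 0.16 in D3839, where D3839 replicate 1, at 3.46 for Il9r and 3.56 for Snrnp25, stood above replicates 2 and 3, at 2.29 to 2.51.

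**Figure D3:**
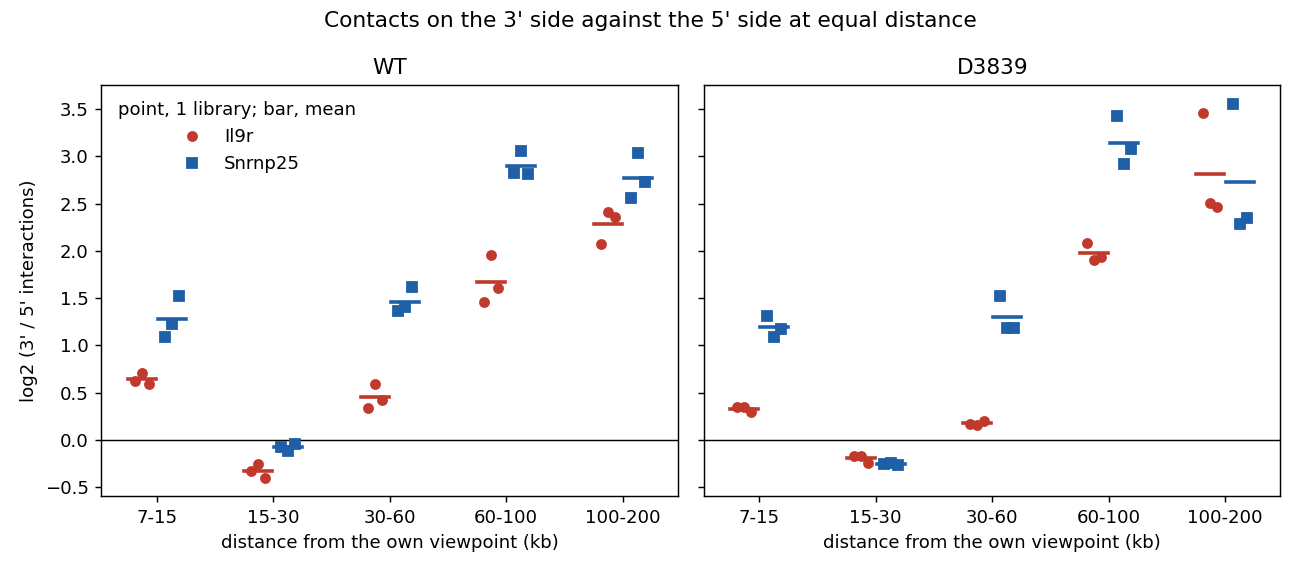
Log2 ratio of interactions on the 3′ side over those on the 5′ side at equal distance from the own viewpoint, for Il9r (red circles) and Snrnp25 (blue squares) in WT (left) and D3839 (right); each point is 1 library and the bars are means. In the bands of 7 to 15, 30 to 60 and 60 to 100 kb, each Snrnp25 library lies above each Il9r library.

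The sides were also set apart. Between 7 and 100 kb on the 5′ side, Il9r took 8.87%, 8.99% and 9.47% in WT and Snrnp25 8.05%, 7.96% and 8.06%, at equal distances from each (log2 ratio 0.18 ± 0.05). On the 3′ side Il9r took 12.6%, 15.1% and 13.7% and Snrnp25 21.3%, 21.8% and 23.2% (log2 ratio -0.68 ± 0.13). In D3839 the values were 0.36 ± 0.04 on the 5′ side and -0.52 ± 0.09 on the 3′ side (SD, n = 3). The 3′ side thus held the larger part of the difference in both genotypes.

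Bins of 10 kb showed where along the chromosome the order changed. From chr11:32110001 to 32200000, all 9 bins had the higher Snrnp25 share in all 6 libraries, against 3.28% of the 1096 bins of chr11 that held at least 20 counts over both viewpoints and 6 libraries. The log2 ratio in these 9 bins ran from -1.22 to -0.54 in WT and from -1.02 to -0.43 in D3839. Of the 9 bins that follow each other from 32000001 on the 5′ side, 8 had the higher Il9r share in all 6 libraries, against 7.57% of bins. Of the 12 bins from 32200001 to 32320000, 7 did so. In D3839 the sign changed at 32200000, close to the end of the globin stretch, from -0.58 in the bin before to 0.21 and then 0.43 in the bins after. In WT there was no such clear change. The ratio went from -0.80 to -0.16, 0.05 and -0.20 in the next 3 bins, and then to 0.31.

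**Figure D4:**
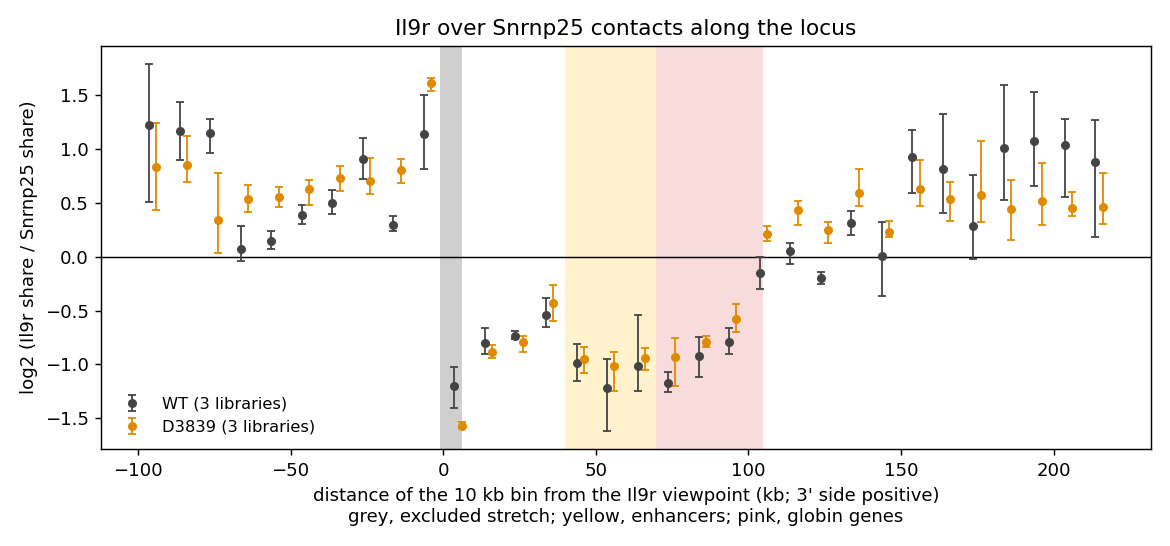
Log2 ratio of the Il9r share over the Snrnp25 share in 10 kb bins against distance from the Il9r viewpoint (grey WT, orange D3839; points are means of 3 libraries and bars run from the lowest to the highest library). The ratio is below 0 from the viewpoints to the end of the globin stretch (pink), between -1.22 and -0.43 outside the bins that hold the viewpoints, and above 0 in most bins on either side of it.

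Single fragments were tested with edgeR over both viewpoints and all 6 libraries, with the library as a block, on 1612 fragments that had at least 20 counts over the 12 columns. In WT, Il9r was higher at 15 fragments (0.931% of those tested) and Snrnp25 at 37 (2.30%) at an adjusted p under 0.05. This balance rests on scaling by chr11 totals, since TMM factors gave 19 against 14 in WT and DESeq2 with its own size factors 7 against 1. In D3839, where the counts were deeper, Il9r was higher at 52 (3.23%) and Snrnp25 at 107 (6.64%), against 65 and 89 with TMM factors and 18 and 16 with DESeq2's own. Of the WT calls, 12 of the 15 and 28 of the 37 were also called in D3839, which are 23.1% and 26.2% of the D3839 calls. Leaving out WT replicate 1, 2 or 3 left 5, 7 or 3 WT fragments with Il9r higher and 9, 17 or 15 with Snrnp25 higher, so the WT counts rest on all 3 libraries.

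The called fragments lay next to the viewpoints and in the cluster. In WT, 13 of the 15 fragments with more Il9r contacts were among the 114 tested in the near 5′ flank (11.4% there). Of the 37 with more Snrnp25 contacts, 17 were among the 60 in the 5′ genes (28.3%), 7 among the 61 of the enhancers (11.5%) and 12 among the 77 of the globin stretch (15.6%). In D3839 these were 44 of 114 in the near 5′ flank (38.6%), 43 of 60 in the 5′ genes (71.7%), 25 of 61 in the enhancers (41.0%) and 36 of 77 in the globin stretch (46.8%). In the 3′ flank, Il9r was higher at 7 of 155 fragments in D3839 (4.52%). The median fitted log2 ratio was 0.62 in the near 5′ flank, -0.79 in the 5′ genes, -1.08 in the enhancers and -0.998 in the globin stretch in WT, against 0.07 over all fragments tested. In D3839 the medians were 0.76, -0.86, -0.90 and -0.72, against 0.16 over all.

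The fragments with the smallest p were the neighbours of each viewpoint. At chr11:32098707-32098763, 57 bases in the near 5′ flank and 1.4 kb from the midpoint of Il9r, Il9r had 410, 417 and 655 interactions per 100000 in WT and Snrnp25 37, 203 and 177. In D3839 the values were 785, 808 and 823 against 172, 112 and 116. Il9r was higher in every library, with edgeR log2 ratios of 2.00 ± 0.26 (SE, adjusted p = 5.17e-10) in WT and 2.65 ± 0.14 (adjusted p = 3.07e-73) in D3839. For D3839 the adjusted p was 6.31e-11 in edgeR with the genotype fitted alone and 1.23e-15 in DESeq2, so its size depends on the model. At chr11:32106945-32107237, in the 5′ genes and 1.7 kb from the midpoint of Snrnp25, Il9r had 169, 187 and 169 per 100000 in WT and Snrnp25 403, 427 and 748. In D3839 these were 383, 325 and 338 against 1227, 1187 and 1088. The edgeR log2 ratios were -1.51 ± 0.22 (adjusted p = 4.86e-08) in WT and -1.75 ± 0.09 (adjusted p = 3.88e-77) in D3839. In D3839 the smallest edgeR p was at the fragment that starts at 32106753 (log2 ratio -2.07 ± 0.09, adjusted p = 8.07e-106).

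The other leading fragments had the same neighbours. In WT, Il9r was higher at 32098459, 32095640 and 32087980 (fragment starts on chr11) and Snrnp25 at 32106753, 32108025 and 32108622. In D3839 the further leading fragments were 32096663, 32098459 and 32098764 for Il9r and 32106753, 32106269 and 32107238 for Snrnp25. The fitted log2 ratios of these ran from 1.32 to 2.20 for Il9r and from -2.07 to -1.25 for Snrnp25, with adjusted p of at most 0.00376 in edgeR. Some of these WT calls were lost with fewer libraries or other settings, with the direction kept. Towards Snrnp25, DESeq2 with its own size factors lost the WT calls at 32106753 (adjusted p = 0.0617), 32108025 (0.0837) and 32108622 (0.509). It kept the one at 32106945 (0.0243). The log2 ratio of 32098459 was 0.92 without WT replicate 3 (edgeR adjusted p = 0.164), and that of 32095640 1.04 without WT replicate 2 (0.0563). The call at 32087980 was lost without WT replicate 1 (log2 ratio 1.85, adjusted p = 0.202) or 3 (2.06, 0.0678), with no filter on low counts (2.10, 0.137) and with DESeq2 (2.11, 0.0825), while its ratio stayed near the 2.10 of the full data. The farthest of them was 32087980-32088047, at -12.1 kb from Il9r (the minus sign marks the 5′ side), with 140, 110 and 181 Il9r interactions per 100000 in WT against 24, 41 and 39 for Snrnp25.

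With the distance offset in the same edgeR fit, the named neighbours of the viewpoints lost their calls or changed direction, and most of the calls made with the offset lay in the cluster. The offset extends the power law to these neighbours, which lie nearer than the 20 kb at which its fit begins. Il9r was then higher at 2 fragments in WT (0.124%) and 20 in D3839 (1.24%), and Snrnp25 at 5 in WT (0.310%) and 44 in D3839 (2.73%). Of the 44, 24 were in the globin stretch (31.2% of the 77 tested), 16 in the enhancers (26.2% of 61) and 4 in the 5′ genes. Of the 20, 10 were in the near 5′ flank and 8 in the 3′ flank. The fragment 32106269-32106752, which borders the Snrnp25 stretch, turned from a log2 ratio of -1.75 to 0.73 in D3839.

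A few fragments called with the offset are given as examples, chosen after their values were seen. At chr11:32151062-32151881, inside R2, Il9r had 62.7, 65.9 and 67.8 interactions per 100000 in WT and 24.5, 52.2 and 47.4 in D3839. Snrnp25 had 97.8, 163 and 98.5 in WT and 172, 141 and 127 in D3839. Snrnp25 was higher in each of the 6 libraries, and the offset log2 ratio was -1.55 in D3839 (edgeR adjusted p = 2.37e-06) and -0.67 in WT (adjusted p = 0.701). At chr11:32179854-32180844, in the globin stretch, Il9r had 57.9, 32.9 and 33.9 in WT and Snrnp25 134, 224 and 177. In D3839 the values were 64.4, 56.1 and 61.2 against 180, 61.9 and 156. Snrnp25 was higher in 6 of 6 libraries, with an offset log2 ratio of -1.76 in WT (adjusted p = 0.0182) and -0.97 in D3839 (adjusted p = 0.0109). At chr11:32194990-32195292, also in the globin stretch, the offset log2 ratio was -1.63 in WT (edgeR adjusted p = 0.00698) but -0.13 in D3839 (adjusted p = 0.877). Towards Il9r, chr11:32205649-32206011 in the 3′ flank had 0.98 in D3839 (edgeR adjusted p = 0.00387) and 0.05 in WT (adjusted p = 0.99). At chr11:32251666-32252024, called towards Il9r in WT (edgeR adjusted p = 0.0444), Il9r had 10, 4 and 8 interactions in WT and Snrnp25 0, 0 and 0.

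The ratio of the viewpoints was called different between the genotypes at 1 of the 1612 fragments (0.0620%) towards Snrnp25 and at 0 (0%) towards Il9r in edgeR. At an unadjusted p under 0.05 there were 25 and 49, and DESeq2 called 0 in all. The fragment was chr11:32184706-32184781, 76 bases in the globin stretch. Il9r had 10, 3 and 3 interactions there in WT and 6, 17 and 11 in D3839. Snrnp25 had 0, 0 and 0 in WT and 10, 14 and 16 in D3839. The Snrnp25 level in D3839, 85.6 per 100000 over the 3 libraries, was at least 5.19-fold higher than the 16.5 per 100000 that a count of 3 over the WT libraries would give, a level that was not tested on its own. The edgeR adjusted p of 0.00353 is for the difference between genotypes in the ratio of Il9r over Snrnp25. Without WT replicate 1 the adjusted p was 0.736. A fragment of the same length, 32197523-32197598, lies in the same stretch, which holds the near-identical genes Hba-a1 and Hba-a2. Whether the fragments share sequence, and whether reads were placed at one or the other, was not tested. There Snrnp25 had 7, 7 and 9 interactions in WT and 14, 16 and 26 in D3839, and the edgeR difference between genotypes was -0.03 ± 0.46 in log2 (adjusted p = 1).

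Seen from the enhancers themselves, the order was the same. In the other capture of the series, with R1 and R2 as viewpoints in 3 WT and 3 D3839 libraries, the sample labels name the same cell preparations as in the promoter capture, so that these counts are another readout of shared material and not independent samples. The interactions that fell in the Il9r and Snrnp25 stretches were counted per kb of stretch. Per 100000 chr11 interactions and kb, R1 had 175, 151 and 184 at Il9r in WT and 405, 381 and 237 at Snrnp25. In D3839 it had 109, 110 and 118 at Il9r and 252, 198 and 211 at Snrnp25. Per kb, Snrnp25 was higher in all 6 libraries, and the log2 ratio of Il9r over Snrnp25 was -0.97 ± 0.53 (WT) or -0.97 ± 0.21 (D3839), SD, n = 3 (exact sign-flip p = 0.25 each). WT replicate 3, with -0.37, lay apart from the other WT libraries. Its counts before division by length were 173 at Il9r and 169 at Snrnp25, the other way round. The Il9r stretch is 2263 bases long and the Snrnp25 stretch 1715, so the order in this library rests on that division. Seen from R1, D3839 minus WT was -0.60 ± 0.09 (SE, log2, exact permutation p = 0.1) for the level at Il9r and -0.60 ± 0.27 (p = 0.2) for that at Snrnp25, and 0.00 ± 0.33 (p = 1.0) for the ratio. Read from the promoters, the share at R1 differed by -0.13 ± 0.11 for Il9r and 0.14 ± 0.14 for Snrnp25 (exact permutation p = 0.3 and 0.5). The captures thus did not give the same shift.

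R2 had 55.6, 74.2 and 83.0 at Il9r in WT and 163, 212 and 196 at Snrnp25, a log2 ratio of -1.44 ± 0.17. In D3839 it had 70.0, 78.5 and 64.1 at Il9r and 140, 125 and 113 at Snrnp25, a ratio of -0.83 ± 0.17 (SD, n = 3). The genotypes did not overlap (difference 0.61 ± 0.14, SE, exact permutation p = 0.1). The level at Snrnp25 was lower in D3839 by 0.59 ± 0.14 in log2, without overlap, and that at Il9r differed by 0.01 ± 0.19. Read from the promoters, the genotype difference of the ratio at R2 was -0.07 ± 0.35 (SE, exact permutation p = 0.8). The Snrnp25 share at R2 differed there by -0.13 ± 0.29 (exact permutation p = 0.7). The captures thus did not show the same genotype difference at R2. The enhancers lie 40.2 to 51.3 kb from the promoters, and these counts carry no distance correction.

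**Figure D5:**
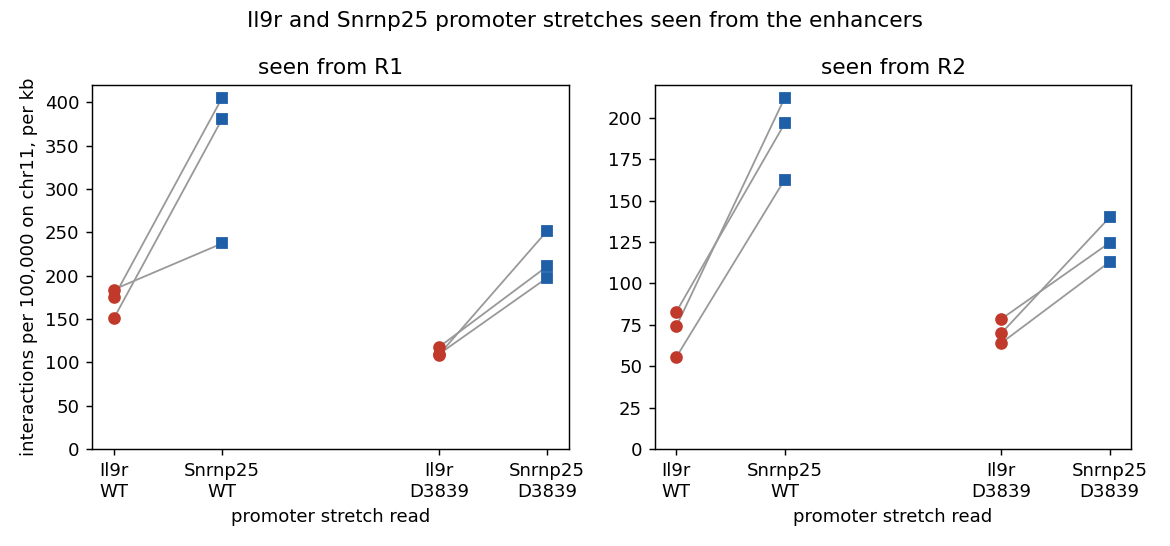
Interactions of the R1 (left) and R2 (right) viewpoints per 100000 on chr11 and per kb in the Il9r (red circles) and Snrnp25 (blue squares) stretches; each line joins both values of 1 library, 3 libraries for each genotype. Each line goes up from Il9r to Snrnp25, least steeply in 1 WT library seen from R1.

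The next viewpoints along the chromosome show on which side each promoter fell. In the same promoter-capture libraries, the cluster took 15.3% ± 0.46 of Rhbdf1 interactions and 14.8% ± 0.46 of Mpg interactions in WT (SD, n = 3), with the same stretch excluded. Snrnp25, at 13.3% ± 0.16, was below both in 3 of 3 libraries, by 0.20 ± 0.04 and 0.15 ± 0.05 in log2, and Il9r, at 6.92% ± 0.79, by 1.15 ± 0.12 and 1.10 ± 0.12 (exact sign-flip p = 0.25 each). In D3839 the cluster took 21.0% ± 1.5 of Rhbdf1 and 19.0% ± 1.7 of Mpg interactions, against 13.4% ± 1.4 for Snrnp25 and 7.93% ± 0.39 for Il9r. In D3839 the log2 distance of Snrnp25, without a distance correction, was 0.65 ± 0.08 from Rhbdf1, 0.51 ± 0.03 from Mpg and 0.75 ± 0.09 from Il9r. In the 3′ flank, Rhbdf1 took 7.10% ± 0.18 in WT, within 0.02 ± 0.02 of Snrnp25 in log2. In D3839 the log2 ratio over Snrnp25 there was -0.35 ± 0.07 for Rhbdf1 and -0.59 ± 0.17 for Mpg.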

How the data were processed

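NG Capture-C of day 7 EB-derived CD71+ cells was analysed from tables the authors deposited as counts, which give for each viewpoint how many interactions, not normalized, each DpnII fragment had. The submitters' processing notes name Trim Galore, Bowtie and mm9, and the treatment of PCR duplicates is not given in the sources used here, so that intervals (95%, Wilson for shares) and floors cover counting error only. Regions, members and tests were chosen with earlier results of these data known. Fragments were assigned by midpoint, and interactions were divided by those of the viewpoint on chr11 outside the excluded stretch. Shares were compared by exact sign-flip tests within libraries and exact permutation tests between genotypes. With 3 pairs the sign-flip p is 0.25 whenever all 3 ratios share a sign. With 3 against 3 libraries the permutation p is 0.1 whenever the genotypes do not overlap. At these limits the p-values do not measure the spread between libraries, which the SD and SE give.

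For single fragments the quasi-likelihood test of edgeR 4.0.16 was used under R 4.3.3 (library as block, a viewpoint term for each genotype, chr11 counts as library size, at least 20 counts over 12 columns, Benjamini-Hochberg adjustment over 1612 fragments), checked on simulated counts. The common dispersion was 0.000485, so that edgeR p-values rest largely on counting error. Named fragments were the 4 with the smallest p in each direction and genotype, and up to 3 in each direction for the difference between genotypes. Alternatives included DESeq2 1.42.0, TMM factors, other filters, bins of 5 kb, distance corrections, other totals and leaving out each library. The R1 and R2 capture was used only for the reciprocal counts.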

Additional observations from a re-analysis of the deposited data

Results flagged for a closer look

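The fragment chr11:32184706-32184781 was singled out because edgeR called its Il9r over Snrnp25 ratio different between the genotypes, with a fitted log2 difference of -7.76 (D3839 minus WT), a value that depends on the prior count since Snrnp25 had no interaction there in WT. In 2 bins of 10 kb, all WT libraries had a ratio below 0 and all D3839 libraries one above 0. They start at 32200001, with a difference of 0.36 in log2, and at 32220001, with 0.45, and the difference was not tested. From 15 to 30 kb at equal distance, the 3′ over 5′ log2 ratio of Il9r minus that of Snrnp25 was below 0 in all WT libraries and above 0 in all D3839 libraries, 0.31 apart, which was not tested either.

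Interactions in the excluded stretch between the viewpoints entered no comparison of the report, and only an alternative total counted them. They made up 2.41% ± 0.30 of chr11 interactions for Il9r in WT and 5.11% ± 0.32 in D3839, and 1.86% ± 0.20 and 3.30% ± 0.18 for Snrnp25 (SD, n = 3), above the share that a count of 3 gives. The groups were of 3 libraries, and no library was tested as standing apart.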

How the results depend on the processing

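Leaving aside counting each fragment once, the higher Snrnp25 share of the α-globin cluster within each genotype kept its direction under all alternatives run. The log2 ratio ran from -1.04 to -0.82 in WT and from -0.80 to -0.62 in D3839. Counting once gave -0.96 in WT and -1.23 in D3839. It also put the near 5′ flank and the 3′ flank below 0, so it cannot bear on the direction in the cluster. With a total within 1 Mb, the cluster difference between genotypes was 0.11 and the 3′ flank ratio in WT 0.18. Distance corrections turned the near 5′ flank in WT (-0.0598, and -0.13 with an exponent of 1) and the 5′ genes in WT (0.15 and 0.23) and, with an exponent of 1, in D3839 (0.0184). Counting each fragment once, which ignores how often it was joined, turned the near 5′ flank (-0.77 in WT, -1.198 in D3839, difference -0.43), the 3′ flank (-0.62, -1.09 and -0.47) and the cluster difference (-0.27). There Il9r lists 4918 to 18293 fragments of chr11 and Snrnp25 2810 to 7824, while of the 115 fragments of the near 5′ flank Il9r lists 110 to 115 and Snrnp25 93 to 113. The genotype difference in the equal-distance ratio ran from -0.0803 to 0.0611 when a library was left out, with 0.04 without D3839 replicate 1 and 0.0611 without WT replicate 2. A total without the near 5′ flank and 5′ genes, chosen after seeing the data, gave genotype differences of 0.12 for the cluster and 0.23 for the 3′ flank.

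Fragments called are given as Il9r higher and Snrnp25 higher in WT, then the same in D3839. They were 3, 11, 28 and 59 with DESeq2 on chr11 totals, 7, 1, 18 and 16 with DESeq2's own size factors, 3, 6, 31 and 61 with no filter, 7, 22, 27 and 20 in bins of 5 kb, and 2, 5, 20 and 44 with the distance offset. TMM gave 19, 14, 65 and 89. Leaving out 1 library gave 3 to 15, 9 to 38, 41 to 56 and 73 to 110. The fragment that differed between genotypes was lost with DESeq2 (0 by either factors), with no filter (0) and without WT replicate 1 (0), and 2 fragments differed at a minimum of 60 counts. With the distance offset, 10 named log2 ratios turned: -0.64 (32098459), -0.15 (32098707), 0.69 (32106753), 0.42 (32106945) and 0.0499 (32108622) in WT, and -0.39 (32098764), 0.73 (32106269), 0.0889 (32106753), 0.25 (32106945) and 0.29 (32107238) in D3839. Beyond what the offset and counting once do by construction, the cause was not tested.

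Replicate numbers are shared between genotypes, but same-numbered libraries correlated at -0.31, 0.61 and -0.36 over 23 bins, so they were not taken as pairs. With same-numbered libraries paired, the mean genotype differences are by arithmetic those of the main comparison, so this setting could not move them. They were 0.46 for the near 5′ flank, -0.21 for the 5′ genes, 0.20 for the cluster, 0.31 for the 3′ flank and -0.02 for the equal-distance ratio. Without the library as a block in edgeR, 12, 33, 54 and 102 fragments were called.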
